A study of Saccharina japonica with 2 samples.

Results

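The 35 unigenes described here were annotated by the study as homologues of blue light (BL) receptors from families built around a LOV domain. They are among 70288 unigenes of the kelp Saccharina japonica with a read in at least 1 library. A unigene is a contig left after redundant assembled sequences were merged. Members were taken from the study's annotation lists and not by their values. They are the unigenes that its list of BL photoreceptors places under phototropin or under bacterial BL receptor, together with those that its circadian clock list places under ZTL, FKF1 or LKP2. Of the 35, 13 stood in both lists and 22 in 1 list. Sporophytes, labelled as vegetative tissue of mature thalli and described as juvenile in the study's methods, were first kept in darkness for 4 h and then placed in sterilized seawater for 2 h either in darkness or under BL. No mutant, inhibitor or further agent was used, and both groups shared the dark period. RNA of several pooled individuals gave 1 library per treatment, so individuals could not be told apart and no difference in reads has a replicate check. The study's replicated quantitative PCR was not analysed here. No marker list for kelp tissues was at hand, so the labelled tissue was not checked.

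In the dark, 10905306 reads aligned uniquely to 61927 unigenes, and in BL 11410538 to 69362. Levels are given in RPKM, reads per kilobase of unigene scaled to a fixed number of aligned reads. On a unigene of 1 kb, 1 dark read was worth 0.0917 RPKM and 1 BL read 0.0876 RPKM. A unigene was called upregulated or downregulated at an absolute log2 ratio of BL over dark RPKM of at least 1 and a false discovery rate (FDR) of at most 0.001. The test was that of Audic and Claverie on the reads of both libraries, with Benjamini-Hochberg adjustment over all 70288 unigenes. It compares these libraries and not the treatments. Intervals are exact 95% intervals that cover counting error only. Where a library had no read, the limit was set with 3 reads in its place.

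LOV domains bind a flavin that forms a bond with the protein in BL. In land plants, phototropins couple a pair of LOV domains to a serine/threonine kinase and steer phototropism, chloroplast movement and stomatal opening. ZTL, FKF1 and LKP2 couple 1 LOV domain to an F-box and kelch repeats, and as part of an SCF ubiquitin ligase they set the turnover of clock proteins such as TOC1 and of repressors of flowering. Aureochromes, known from brown algae and their relatives, join a LOV domain to a bZIP DNA-binding domain, and the receptor of the bacterium Listeria innocua is a small LOV protein. The LOV domain is common to all of these families, and the LOV content of the members was not examined.

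All 7 unigenes matched to rice PHOT2 and the 1 matched to the Listeria receptor also stood under ZTL and FKF1 in the clock list, while none of the 19 matched to Arabidopsis phototropin 1 did. The entries of these 19 also carry an enzyme code for a serine/threonine kinase. Whether a LOV or a kinase region gave their match was not examined. Another 5 clock entries stood under aureochrome in the photoreceptor list, and 3 stood in the clock list only. Of the 16 clock members, all 16 were listed under both ZTL and FKF1 and 14 under LKP2, Unigene47823 and Unigene69770 being the exceptions. One sequence was thus usually listed as all of these F-box proteins, and the listing does not tell them apart.

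The study designed 2 primer pairs for quantitative PCR of this group, and these are the parts of the transcripts whose bases were at hand. They are shown here, 5′ to 3′ and in lower case throughout, because they state which sequences the name ZTL/FKF1/LKP2 was tied to at the bench. Which unigene each pair amplifies is not given in the sources used here.
ZTL/FKF1/LKP2 (1)-F1: ggttgtacccagtcatatcca
ZTL/FKF1/LKP2 (1)-R1: gtgcctcaagccatcgtc
ZTL/FKF1/LKP2 (2)-F1: tgtcaggaccttgcagaaacc
ZTL/FKF1/LKP2 (2)-R1: cctcagatgccagacaaccc
The primers are 18 to 21 bases long, with a GC content of 47.6% to 61.1%. Sequences of whole unigenes were not used here. It was therefore not examined whether several members are pieces of 1 transcript, or how many reads were left uncounted because they matched more than 1 homologue.

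A disagreement about 1 member touches every sum over the group. The length in the study's list equalled the deposited length for 41 of 43 photoreceptor unigenes. The 2 exceptions had each other's length: Unigene16063, listed as a phototropin, is 3549 bp long in the deposited data, and Unigene22061, listed as a cryptochrome, is 2107 bp long. Whether the annotation or the length was exchanged is not given in the sources used here. Unigene16063 held 4725 of the 7409 dark reads of the group (63.8%) and 5121 of the 14101 BL reads (36.3%). Sums are therefore given with and without it.

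Of the 35 members, 24 (68.6%) were upregulated in the BL library, none was downregulated and 11 were not called. Over all unigenes 25.0% were upregulated and 11.6% downregulated. The downregulated count was also 0 with Fisher's exact test and with edgeR's exact test at assumed spreads, but 1 member passed as downregulated with TMM scaling and 2 with median-of-ratios scaling. With the trend of the ratio with GC content removed, 11 members were upregulated and 4 downregulated, beside 12175 and 6948 of all 70288 unigenes. In edgeR's exact test with the biological coefficient of variation set to 0.4, 4 members were upregulated, beside 839 of all unigenes. At an unadjusted p under 0.05 in the Audic-Claverie test, 2 members had the lower level in BL, both by less than the fold threshold. In BL, 31 members had the higher RPKM and 4 the lower, and the median log2 ratio was 1.98, beside 0.67 for all unigenes. With 3 reads set where a library had none, 43576 of all 70288 unigenes were higher in BL. From 55% to 65% GC, 27 of 30 members and 19692 of 23595 unigenes were higher in BL, with median log2 ratios of 2.10 and 1.64. TMM factors shifted every log2 ratio by -0.29 and median-of-ratios factors by -0.42, and the calls over all unigenes went from 17561 up and 8135 down to 14066 and 11534 with TMM and to 12632 and 13285 with median-of-ratios scaling. Summed over the members and scaled to the library totals, reads were 1.82-fold higher in BL (interval 1.77 to 1.87), 3.20-fold (3.06 to 3.34) without Unigene16063 and 3.06-fold (2.94 to 3.19) with Unigene22061 in its place. In a bulk sample, fewer cells that use a gene and less RNA per cell cannot be told apart.

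**Figure D1:**
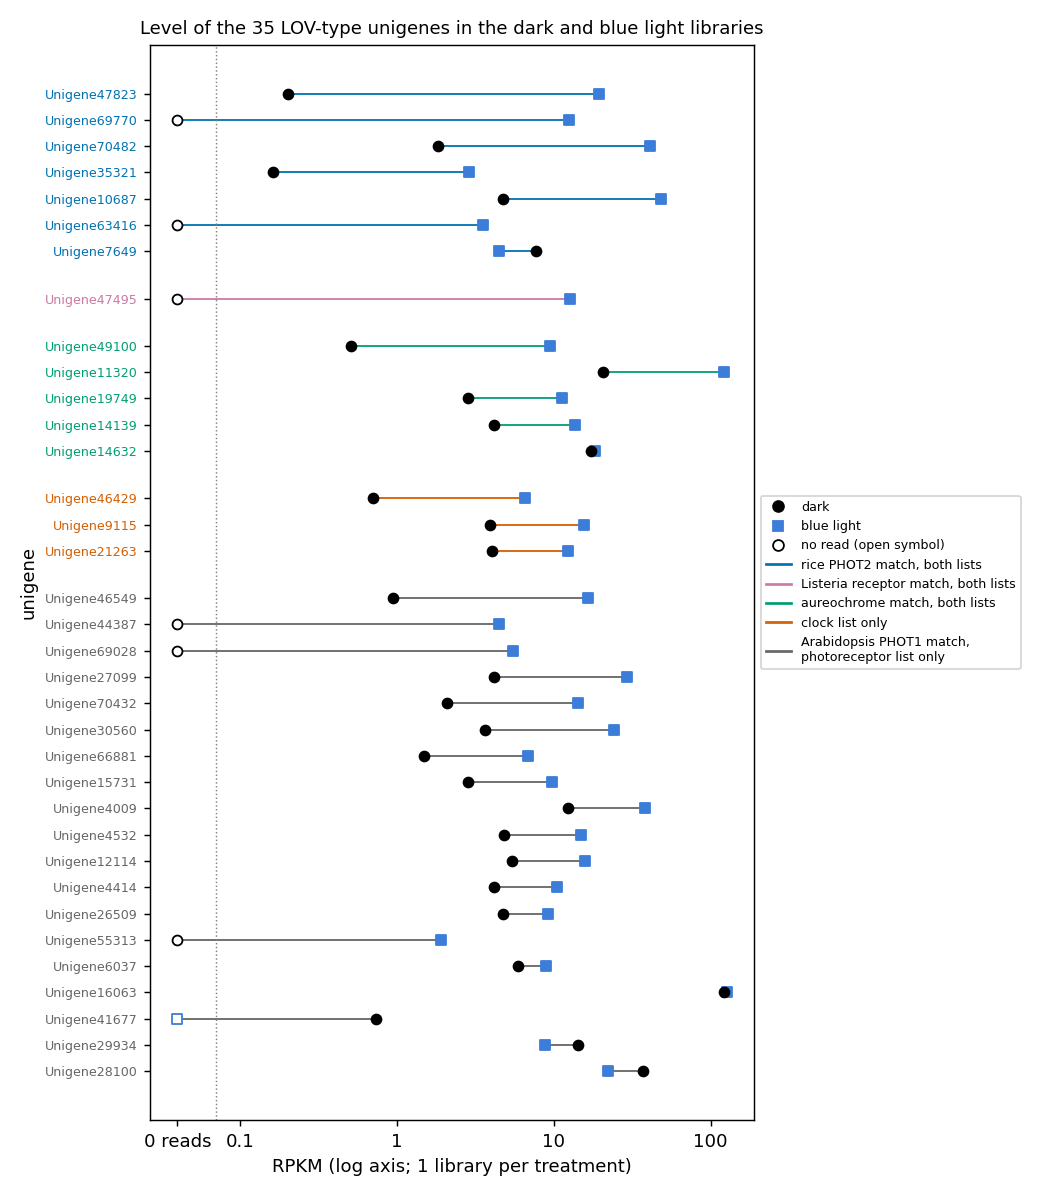
RPKM of each of the 35 unigenes (log axis) in darkness (circles) and BL (squares), with colours for the annotation classes and open symbols for libraries without a read. Most squares lie to the right of their circles, 12 unigenes lie under 1 RPKM in the dark library, and Unigene16063 stands at 122 RPKM in the dark and 126 RPKM in BL.

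The rice PHOT2 matches, which stood in both lists, held the highest ratio among members with reads in both libraries, and 5 of the 7 were upregulated. The median GC content of the 7 was 57.6%, and 38.8% of all unigenes at 55% to 60% GC were upregulated. With the GC trend removed, 4 of the 7 were upregulated. PHOT2 of land plants is the phototropin known for the chloroplast avoidance response in strong light. Unigene47823 (906 bp) had 2 dark reads and 201 BL reads, or 0.202 and 19.4 RPKM. Its ratio was 96.1-fold with an interval of 26.2 to 799 (FDR = 5.78e-54), so the 2 dark reads left its size loosely fixed. In RPKM rank among all unigenes with a read it went from percentile 0.381 to percentile 79.8.

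Unigene69770 (613 bp) had no dark read and 87 BL reads, 12.4 RPKM, and was at least 27.7-fold higher in BL, or at least 22.1-fold by the lower end of its interval (FDR = 8.97e-25). Unigene70482, the longest of this class at 1693 bp, had 34 and 787 reads, which is 1.84 and 40.7 RPKM. It was 22.1-fold higher in BL, and with 34 dark reads the interval narrowed to 15.7 to 32.2 (FDR = 4.94e-178). It held 53.8% of the BL reads of the class and went from rank 22 to rank 4 among the 35 members by RPKM.

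Unigene10687 (576 bp) had the highest dark level of the upregulated PHOT2 matches, 4.78 RPKM from 30 reads, and reached 48.5 RPKM from 319 reads in BL. This was a 10.2-fold difference (interval 6.98 to 15.3, FDR = 5.59e-58), and only Unigene16063 and the aureochrome match Unigene11320 had a higher BL level among the members. Unigene35321 (1125 bp) had 2 and 37 reads, 0.163 and 2.88 RPKM, a ratio of 17.7 with a wide interval of 4.56 to 151 (FDR = 2.54e-08). Its reads lay on a small share of its length, as described with the coverage.

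The last 2 PHOT2 matches were not called, and they were the shortest of the class. Unigene63416 (296 bp) had 0 and 12 reads, 3.82-fold more in BL with 3 dark reads in place of none. The lower end of its interval was 2.66-fold, and its FDR of 0.00138 lay just outside the threshold. Unigene7649 (393 bp) had 33 dark and 20 BL reads, 7.70 and 4.46 RPKM, a ratio of 0.579 whose interval of 0.315 to 1.04 includes 1 (FDR = 0.0749). It had the highest dark RPKM of the 7, and it was the only one with fewer reads in BL. Summed over the 7, reads went from 101 in the dark to 1463 in BL, 13.8-fold after scaling to the library totals (interval 11.3 to 17.1).

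The bacterial receptor match, Unigene47495 (1147 bp), was also in both lists. No dark read and 166 BL reads fell on it, 12.7 RPKM, and these covered 99.9% of its length. With 3 dark reads in place of none it was 52.9-fold higher in BL, and the lower end of its interval was 42.5-fold (FDR = 1.62e-47). With PHOT2 matches Unigene47823, Unigene69770 and Unigene70482 it made up the 4 members that stayed upregulated when edgeR's exact test was given an assumed biological coefficient of variation of 0.4, a large spread between samples.

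All 3 members found only in the clock list were upregulated, and 1 of them, Unigene46429, with the GC trend of the ratio removed. Unigene46429 (390 bp) had 3 and 29 reads, 0.705 and 6.52 RPKM, a 9.24-fold difference with an interval of 2.86 to 47.4. Unigene9115 (1165 bp) had 50 and 207 reads, a 3.96-fold difference (interval 2.89 to 5.50). Unigene21263 (1060 bp) had 47 and 150 reads, a 3.05-fold difference (interval 2.18 to 4.33). The 2 long unigenes were thus alike in level, 3.94 and 4.07 RPKM in the dark, and their intervals in BL over dark overlapped.

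The 5 clock entries matched to aureochromes of the brown alga Ectocarpus siliculosus were upregulated in 4 cases. Unigene49100, matched to aureochrome 1, had 4 and 77 reads, 18.4-fold (interval 6.90 to 69.2), and Unigene11320, matched to aureochrome 2, had 393 and 2454 reads, 5.97-fold (interval 5.36 to 6.66). Unigene19749 with 17 and 70 reads was 3.94-fold higher in BL and Unigene14139 with 35 and 120 reads 3.28-fold. The exception was Unigene14632, matched to aureochrome 5, with 153 and 169 reads and a ratio of 1.06 (interval 0.843 to 1.32, FDR = 0.716), whose log2 ratio of 0.08 became -0.21 with TMM and -0.34 with median-of-ratios scaling. Unigene11320 had 122 RPKM in BL and held 84.9% of the BL reads of these 5. With the GC trend removed, 2 of the 5 were upregulated and Unigene14632 was downregulated.

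The 19 matches to Arabidopsis phototropin 1, the phototropin known for phototropism in dim and strong BL, stood in the photoreceptor list only, and 11 of them were upregulated. Unigene46549 (584 bp) had the highest ratio with reads in both libraries, from 6 to 110 reads and from 0.942 to 16.5 RPKM, 17.5-fold (interval 7.80 to 48.8, FDR = 7.39e-24). Unigene44387 (782 bp) had 0 and 40 reads and was 12.7-fold higher in BL with 3 dark reads in place of none, with a lower interval end of 9.89-fold. Unigene69028 (494 bp) had 0 and 31 reads and was 9.88-fold higher on the same terms, with a lower interval end of 7.56-fold. These 3 had between 4.48 and 16.5 RPKM in BL.

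Among the long phototropin 1 matches, 3 lay close together in ratio. Unigene27099 (1773 bp) had 80 and 594 reads, 4.14 and 29.4 RPKM, 7.10-fold (interval 5.61 to 9.08). Unigene70432 (1273 bp) had 29 and 206 reads, 6.79-fold (interval 4.59 to 10.4). Unigene30560 (1849 bp) had 73 and 508 reads, 6.65-fold (interval 5.20 to 8.62). Their intervals overlapped, so the order among these 3 was not resolved.

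The remaining 5 upregulated phototropin 1 matches lay between 2.92-fold and 4.62-fold. Unigene66881 (369 bp) had 6 and 29 reads and was 4.62-fold higher in BL (FDR = 0.000466), the weakest call of the group. Unigene15731 (513 bp) had 16 and 57 reads, 3.40-fold. Unigene4009 (2655 bp) had 358 and 1155 reads, 12.4 and 38.1 RPKM, 3.08-fold with a narrow interval of 2.74 to 3.48 (FDR = 1.36e-88). Depth set how firmly these were placed, since Unigene66881 rests on 35 reads and Unigene4009 on 1513. Unigene4532 (1122 bp) with 59 and 190 reads was 3.08-fold higher in BL and Unigene12114 (962 bp) with 57 and 174 reads 2.92-fold.

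The 8 phototropin 1 matches that were not called included the 2 members with the most dark reads. Unigene16063, the one of doubtful identity, had 4725 and 5121 reads, a ratio of 1.04 (interval 0.995 to 1.08, FDR = 0.112), and its log2 ratio of 0.05 became -0.24 with TMM and -0.37 with median-of-ratios scaling. Unigene28100 (1936 bp) had 779 and 487 reads, 36.9 and 22.0 RPKM, a ratio of 0.597 (interval 0.532 to 0.670, FDR = 1.18e-18). Unigene29934 (1436 bp) had 223 and 144 reads, 14.2 and 8.79 RPKM, a ratio of 0.617 (interval 0.497 to 0.764, FDR = 1.49e-05). For both of these the interval lay below 1 and the FDR passed, but the log2 ratios of -0.74 and -0.70 did not reach the 2-fold threshold. Unigene28100 passed as downregulated with TMM scaling, and both did with median-of-ratios scaling.

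Of the other 5, 3 had a higher level in BL beyond counting error without a call. Unigene26509 (1044 bp) had 54 and 109 reads, 1.93-fold (interval 1.38 to 2.73), and lay just under the fold threshold. Unigene6037 (1850 bp) had 119 and 189 reads, 1.52-fold (interval 1.20 to 1.93). Unigene4414 (394 bp) had 18 and 47 reads, 2.50-fold (interval 1.42 to 4.57), and missed the threshold by its FDR of 0.00175. The last 2 had too few reads for any call: Unigene55313 (230 bp) had 0 and 5 reads, and Unigene41677 (500 bp) had 4 and 0 reads, the only member without a BL read. A difference in these was not detectable at this depth.

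**Figure D2:**
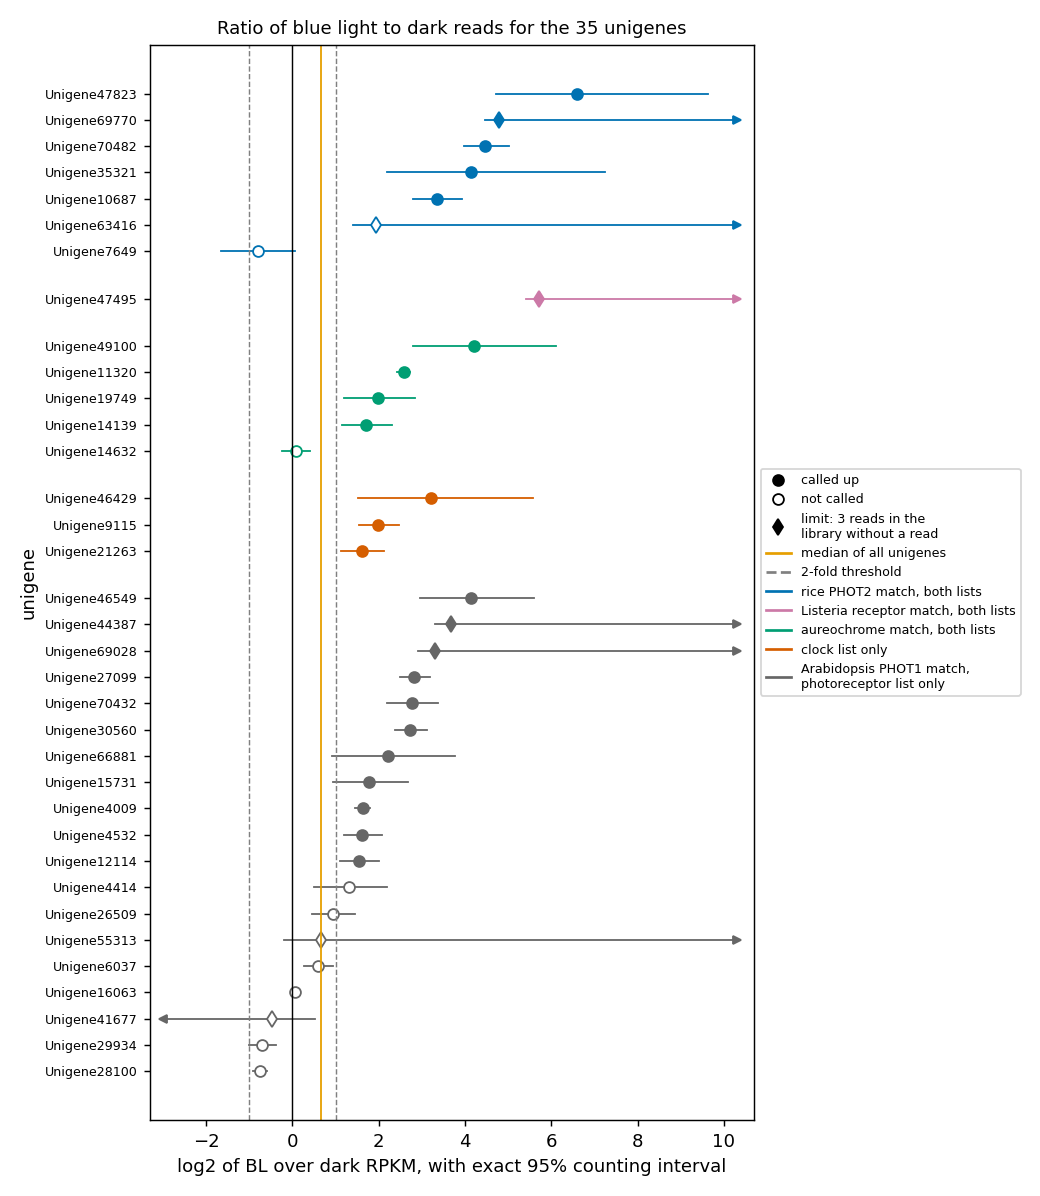
Log2 ratio of BL over dark RPKM for the 35 unigenes with exact 95% counting intervals, filled where called upregulated and open where not, and diamonds for limits with 3 reads in the library without one. The medians are 4.14 for the rice PHOT2 matches, 1.62 for the phototropin 1 matches and 0.67 for all unigenes. For all unigenes from 55% to 65% GC the median is 1.64. None of the 35 lies beyond the 2-fold threshold on the lower side.

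The question behind the next comparison was whether members that both lists share differed from those in 1 list. Of the 13 in both lists, 10 (76.9%) were upregulated, with a median log2 ratio of 3.35. Of the 22 in 1 list, 14 (63.6%) were upregulated, with a median of 1.62. Both shares lay above the 25.0% over all unigenes and the 43.8% from 55% to 65% GC. The median log2 ratio of all unigenes in that range was 1.64. Unigenes are not replicates and the members may share transcripts. The difference between both sets of members is therefore given as a description with no test.

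The contrast was larger in reads than in calls. Members in both lists went from 703 to 4519 reads, 6.14-fold on the same scale (interval 5.67 to 6.66), and without the 5 aureochrome matches from 101 to 1629 reads, 15.4-fold (12.6 to 19.0), with 6 of 8 upregulated. Members in 1 list went from 6706 to 9582 reads, 1.37-fold (1.32 to 1.41). Unigene16063 decided the latter value, which was 2.15-fold (2.04 to 2.27) without it and 2.16-fold (2.06 to 2.27) with Unigene22061 in its place. The calls differed less, at 14 of 21 without Unigene16063 and 15 of 22 with the replacement.

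The dark levels of both phototropin classes also lay apart. In the dark library the PHOT2 matches had a median of 0.202 RPKM and the phototropin 1 matches a median of 4.14 RPKM, and in BL the medians were 12.4 and 10.5 RPKM. The medians lay far apart in darkness and close together in BL. By RPKM, the dark library ranked Unigene16063, Unigene28100, Unigene11320, Unigene14632 and Unigene29934 highest, in that order. In BL the first 5 were Unigene16063, Unigene11320, Unigene10687, Unigene70482 and Unigene4009, with a pair of PHOT2 matches among them where the dark library had none.

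The GC content of the unigenes moved with these ratios. Over all unigenes the median log2 ratio was 0.18 at 50% to 55% GC, 1.35 at 55% to 60% and 1.93 at 60% to 65%. The members had a median GC content of 59.0%, beside 52.3% for all unigenes, and 30 of the 35 lay from 55% to 65%. In that range 43.8% of all unigenes were upregulated and 2.96% downregulated, beside 23 (76.7%) and 0 of the 30 members.

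**Figure D3:**
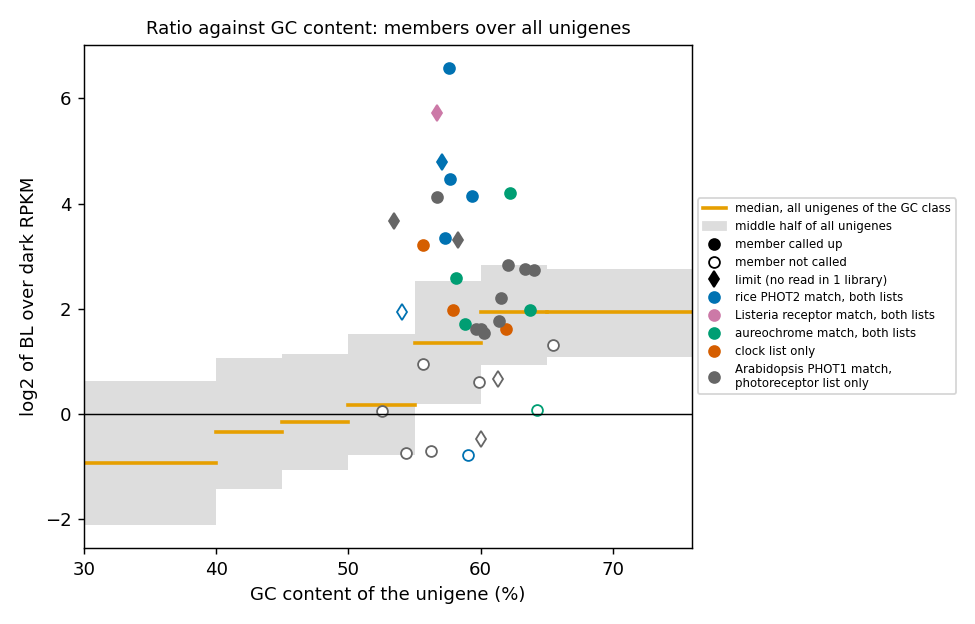
Log2 ratio of BL over dark RPKM against the GC content of the unigene (%), with the median and the quartile range of all unigenes by GC class and the 35 members by annotation class. The PHOT2 matches and the Listeria match at 54.05% to 59.38% GC lie above the band in all but 1 case, and the phototropin 1 matches from 59.63% GC upward lie on either side of the median line.

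When the trend of the ratio with GC content was subtracted, the 2 classes were affected unequally. The median log2 ratio was then 2.33 for members in both lists and 0.20 for members in 1 list. Over all unigenes it was then 0.32, and 0.26 from 55% to 65% GC. The median of members in 1 list lay below both of these values. Counted anew with the trend removed, 11 of 35 members were upregulated and 4 were downregulated. Over all 70288 unigenes, 12175 were then upregulated and 6948 downregulated. Of the 11 members, 7 were among the 13 in both lists and 4 among the 22 in 1 list. The log2 ratios of the 4 highest were then 5.58 for Unigene47823, 5.06 for Unigene47495, 3.96 for Unigene69770 and 3.80 for Unigene44387, of which all but the first are limits. Of the long phototropin 1 matches, Unigene27099 then stood at 0.96, Unigene30560 at 0.85, Unigene70432 at 0.89 and Unigene4009 at -0.025. The 4 counted as downregulated were Unigene6037, Unigene7649, Unigene14632 and Unigene29934. What gave rise to the GC trend was not tested.

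Depth and length were also uneven. The median member held 166 reads and the median of all unigenes was 48, and 21 of the 28 members of at least 500 bp were upregulated, beside 3 of the 7 shorter ones. Of all unigenes of at least 500 bp, 33.5% were upregulated and 16.6% downregulated. The part of depth in the share of calls was not tested apart from this split.

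The deposited coverage was taken from its header as the percentage of a unigene's length that reads covered, and it depends on the same reads. It was higher in BL in 30 of the 35 members, with a median of 82.7% in the dark and 96.6% in BL. In the dark, 11 members and 15633 of all 70288 unigenes were covered over less than 50% of their length. From 55% to 65% GC these were 9 of 30 members and 6852 of 23595 unigenes. Over all unigenes the coverage was higher in BL in 44455 of 70288, with medians of 87.95% and 94.7%. From 55% to 65% GC it was higher in 27 of 30 members and in 18903 of 23595 unigenes, the latter with medians of 78.5% and 96.2%. For Unigene47823 it went from 19.9% to 99.1% and for Unigene70482 from 57.2% to 90.4%. The BL reads of these were thus spread along most of the contig.

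Unigene35321 differed from the other PHOT2 matches. Its 2 dark reads covered 180 bp and its 37 BL reads 216 bp of 1125 bp, 16.0% and 19.2% of the length. Reads placed evenly at random would have covered 94.8% in BL, with a read length of 90 bases estimated from unigenes with 1 read. It was the only member of the 33 with at least 10 BL reads that lay more than 20 percentage points under that expectation. Of all unigenes with at least 10 BL reads, 3204 of 55462 lay that far under it. The 17.7-fold ratio of Unigene35321 therefore describes a short stretch, and its RPKM, which divides by the whole length, understates the level there.

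In the dark library 3 of the 22 members with at least 10 dark reads lay that far under the expectation. Of all unigenes with at least 10 dark reads, 3439 of 42255 did. The 3 members were Unigene70482, Unigene70432 and Unigene29934. Unigene70482 had 57.2% of its length covered where 83.6% was expected, and Unigene70432 had 61.4% where 87.1% was expected. Unigene29934 had 76.8% where nearly the whole length was expected. Unigene29934 stayed low in BL, at 81.3%, while Unigene70432 reached 98.9%. Over members with at least 10 reads, the median difference from the expectation was -5.10 percentage points in the dark and -1.88 in BL, beside -3.92 and -3.38 for all unigenes.

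**Figure D4:**
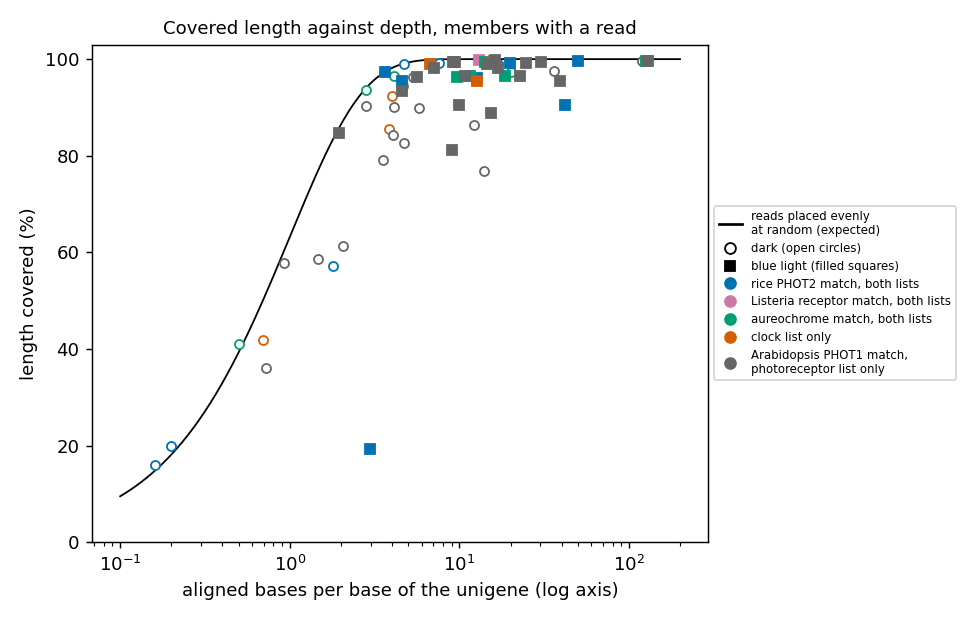
Covered length (%) against aligned bases per base of unigene (log axis) for members with a read, dark as open circles and BL as filled squares, with the curve expected for reads placed evenly at random. Most points follow the curve, and the BL point of Unigene35321 lies far below it at 19.2%.

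Other clock proteins and SCF components were taken from the study's lists, namely CCA1/LHY, TOC1 and APR, CK2, WNK1, CO, ELF3, SKP1 and ring-box protein. Each unigene counted once, 33 of 34 listed had a read, 11 (33.3%) were upregulated and 1 was downregulated, with a median log2 ratio of 1.35. Over all unigenes 25.0% were upregulated, and in the range of 55% to 65% GC 43.8% were. The clock and SCF unigenes had a median GC content of 57.7%. Their median log2 ratio less the GC trend was 0.24, beside 0.32 for all unigenes.

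SKP1, which ties F-box proteins to the ligase, and ring-box protein, which binds the ubiquitin-conjugating enzyme, are SCF components that the study lists under the animal-type clock. Of their 6 unigenes, 2 were upregulated, 1 was downregulated and 3 were not called, and with the GC trend removed 2 were upregulated and 0 downregulated. The highest ratio belonged to the SKP1 homologue Unigene59154, with 0 and 29 reads. Its log2 ratio was 3.21 with 3 dark reads in place of none, and the lower end of its interval was 2.82. Unigene12447, a ring-box homologue, fell from 1262 to 591 reads, a log2 ratio of -1.16. Unigene21586, an SKP1 homologue chosen after its values were seen, rose from 243 to 1499 reads.

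TOC1, a clock protein that ZTL is known to act on in Arabidopsis, and the related APR pseudo-response regulators had 9 of 10 listed unigenes with reads. All 9 had the higher RPKM in BL, and 3 were upregulated, or 0 with the GC trend removed. They held between 16 and 67 reads over both libraries. Their median GC content was 62.2%, and at 60% to 65% GC 9404 of all 10442 unigenes were higher in BL. The highest was Unigene46535 with 1 and 17 reads (log2 ratio 4.02) and the lowest Unigene45872 with 20 and 31 reads (0.57).

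CCA1/LHY, the morning MYB factors of the clock, had 2 of 3 unigenes upregulated, with log2 ratios from 0.73 for Unigene951 to 2.31 for Unigene10312, and with the GC trend removed 1 was upregulated and 1 downregulated. Of the unigenes matched to ELF3, a component of the evening complex of the clock, 1 of 2 was upregulated, and with the trend removed 0 were and 1 was downregulated. WNK1 kinase had 1 of 3, or 0 with the trend removed. The 1 unigene matched to the flowering regulator CO, Unigene64736 with 5 and 19 reads, was not called. It is also 1 of the TOC1 and APR unigenes counted above. CK2, the kinase that phosphorylates CCA1, had 2 of 10 upregulated and a median log2 ratio of -0.13, from Unigene48109 at 2.38 to Unigene21867 at -0.60. With the trend removed, 1 CK2 unigene was upregulated and 2 were downregulated. In the main test, 25.0% of all unigenes and 43.8% of those from 55% to 65% GC were upregulated, and the CK2 share was 20%. Of all 70288 unigenes, 12175 were upregulated and 6948 downregulated with the trend removed.

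The other BL receptors of the photoreceptor list were the cryptochromes, flavoproteins related to photolyases, and the aureochromes that were not members. Of 7 cryptochromes 4 were upregulated, from Unigene46375 at a log2 ratio of 3.56 to Unigene67190 at -1.32, which was not called. The cryptochromes had a median GC content of 63.52%. At 60% to 65% GC, 5219 of all 10442 unigenes were upregulated. With TMM and with median-of-ratios scaling 2 cryptochromes were upregulated and 1 was downregulated, and with the GC trend removed 0 were upregulated and 2 downregulated. The 4 called include Unigene22061, with 422 and 966 reads and a log2 ratio of 1.13. Of the 4 aureochromes outside the clock list 2 were upregulated, with Unigene66471 highest at 3.29, and the other call rests on 0 dark and 13 BL reads. With TMM and with median-of-ratios scaling 1 was upregulated, and with the GC trend removed 0 were. Their median GC content was 58.4%, and 38.8% of all unigenes at 55% to 60% GC were upregulated.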

How the data were processed

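Poly(A) RNA of 1 dark and 1 BL pool was sequenced on an Illumina instrument. The authors cleaned the reads, assembled them with SOAPdenovo, merged the contigs into unigenes and aligned the reads back, and the aligner is not given in the sources used here. The deposited counts are the authors' whole numbers of uniquely aligned reads per unigene, without normalization. The deposited percent values are, by the file headers, covered length, GC content and unknown bases. Unigenes absent from a library were set to 0 reads. The annotation came from the study's lists.

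RPKM used all uniquely aligned reads of a library. The 2-sided Audic-Claverie test counted the observed value in either tail, and calls needed p up to 0.05, FDR up to 0.001 and a log2 ratio of 1 or more in either direction. No length minimum was set because members as short as 230 bp are listed. Members and pathway lists were chosen with earlier results of these data known. Every member was named with its reads, and of each pathway list the unigenes with the highest and lowest log2 ratio among those with at least 10 reads could be named.

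Intervals are exact Clopper-Pearson intervals at the 95% level on the BL share of reads, and 0 reads leave room for 3. The GC trend joined the medians of the log2 ratio in 20 GC classes of equal size, drawn from 34252 unigenes of 50 reads or more. Alternatives were Fisher's exact test, an upper tail that starts above the observed count, Benjamini-Yekutieli adjustment, at least 500 bp, at least 10 reads, at least 1 read in each library, TMM and median-of-ratios scaling, a log2 ratio of at least 2, edgeR's exact test with the biological coefficient of variation set to 0.2 or 0.4, removal of the GC trend, a pseudocount of 1 RPKM and membership without the aureochrome matches. The alternatives for Unigene16063, leaving it out or replacing it, were chosen after seeing the data. Python 3.11.15, NumPy 2.4.6, pandas 2.3.3, SciPy 1.17.1, Matplotlib 3.10.9, R 4.3.3 and edgeR 4.0.16 were used.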

Additional observations from a re-analysis of the deposited data

How the results depend on the processing

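No paired analysis was possible because there is 1 library per treatment, and no spread between plants could be estimated. The upregulated count of members was 23 to 25 of 35 with Fisher's exact test, with an upper tail that starts above the observed count, with Benjamini-Yekutieli adjustment and with TMM factors, 22 with median-of-ratios factors, and 16 at a log2 ratio of at least 2. Filters on length or reads leave out the shortest or least read members, which then have no value, and gave 21 of 28 at 500 bp, 24 of 33 at 10 reads and 20 of 28 with a read in each library. An assumed biological coefficient of variation of 0.2 gave 16 members, 8 of them in 1 list, and 0.4 gave 4 members, 4 in both lists and 0 in 1 list. A log2 ratio of at least 2 left 8 in 1 list. Without the aureochrome matches, 6 of 8 members in both lists were upregulated. Members counted as downregulated were 0 in the main test, 1 with TMM factors, 2 with median-of-ratios factors and 4 with the GC trend removed.

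With the GC trend removed, 11 members were upregulated, 7 in both lists and 4 in 1 list, and 8 log2 ratios turned negative. These were -0.025 for Unigene4009, -0.60 for Unigene4414, -1.03 for Unigene6037, -0.16 for Unigene12114, -1.81 for Unigene14632, -0.11 for Unigene15731, -0.26 for Unigene21263 and -1.21 for Unigene55313. With TMM factors Unigene14632 stood at -0.21 and Unigene16063 at -0.24, and with median-of-ratios factors at -0.34 and -0.37, by the shift of all ratios. The cause of the GC trend was not tested. Unigene47823 and Unigene70482 were upregulated in all 13 alternatives, and Unigene47495 and Unigene69770 in every one of them except that with a read in each library, which could not test them.

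Over all unigenes, 17561 up and 8135 down became 7810 and 3876 at 500 bp, 10182 and 2631 at an assumed coefficient of 0.2, and 839 and 130 at 0.4. With the GC trend removed they became 12175 and 6948. The downregulated count alone became 13285 with median-of-ratios factors and 3086 at a log2 ratio of at least 2. The 3 members only in the clock list gave 1 call at a log2 ratio of at least 2, at a coefficient of 0.2 and with the GC trend removed, and 0 at 0.4. None of the clock, SCF and cryptochrome unigenes was called at a coefficient of 0.4.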
